A study of Drosophila melanogaster with 28 samples.

Results

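The comparison of wild type males with males that lack *doublesex* (*dsx*) was made on 4 arrays, of the 28 arrays in 7 comparisons of the series. Its members were chosen by their titles, as replicates 1 to 4 of the XY *dsx* null experiment. On each array, RNA from whole bodies of Canton S (CS) males was hybridized together with RNA from whole bodies of XY *dsx* null intersexuals of the genotype *dsx* D+R3 / *dsx* M+R15, both at 48 hours after puparium formation (APF). Each RNA came from about 30 pooled pupae. The null combination came from mutant stocks that were not stated to be in the CS background, so the loss of *dsx* and the strain difference cannot be told apart. The other 6 comparisons in the series used CS, Berlin, *tud* progeny (which lack a germline), XX *tra* pseudomales, XX *dsxD* pseudomales and XX *dsx* nulls pupae, and some of their means are set beside the XY values. The XX *dsx* nulls had the same *dsx* alleles with a GFP marker on 1 X chromosome and were compared with CS females.

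*dsx* encodes a zinc finger transcription factor at the end of the somatic sex determination hierarchy. Its transcript is spliced by sex, so that males make DSXM and females make DSXF, and animals with neither develop as intersexuals whichever sex chromosomes they carry. *dsx* also acts in the somatic cells of the gonad, and the male germ cells depend on these cells. At this stage the male germ cells are passing through spermatogenesis in the developing testis, while the epidermis is building the adult bristles, hairs and cuticle and the larval fat body is being used up.

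Values are log2 ratios of CS male over XY *dsx* null, so a positive value is a higher level in CS males and a negative value a higher level in the nulls. The direction is not stated in the sample descriptions or in the text of the methods. It was taken from the way in which the study heads and signs this comparison in its supplementary gene list, and it is the same for all 4 arrays, because pairs of arrays with opposite dye orientation correlated at 0.80 to 0.87 and pairs with the same orientation at 0.81 to 0.89 (Pearson, over 7091 array elements, whose values are not independent). Replicates 1 and 2 had CS males in Cy5 and replicates 3 and 4 had them in Cy3. The arrays held values for 5586 (replicate 2) to 8715 (replicate 4) of 15744 elements, and their medians before centring were between -0.15 and -0.04. In all, 7091 elements had values on at least 3 arrays and were tested, 4536 of them on all 4.

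No array element could be named as *dsx* itself, so the missing transcript could not be examined. Of the genes of the sex hierarchy, 3 could be measured. The level of *roX1*, a noncoding RNA of the dosage compensation complex that is made in males, was 0.10, -0.06, 0.16 and 0.37 on replicates 1 to 4, a mean of 0.14 ± 0.18 (SD, n = 4; limma *q* = 0.108), and this call was lost with arrays not centred (*q* = 0.184). *roX2*, the second RNA of this complex, was higher in the nulls, at -0.67 ± 0.31 (SD, n = 4; *q* = 0.00265). *Sex-lethal* (*Sxl*), the switch gene at the top of the hierarchy, was higher in the nulls by a similar amount, at -0.58 ± 0.14 (SD, n = 4; *q* = 0.00183). In Berlin, by comparison, *roX1* differed between females and males by -5.72.

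The difference between these pupae was broad. At a Storey *q* below 0.15, the threshold of the study, 81.7% of the elements tested were called, 41.6% higher in CS males (2952 elements) and 40.1% higher in the nulls (2843). With Benjamini-Hochberg adjusted p below 0.05, 43.3% were called, 25.3% higher in CS males (1794) and 18.0% higher in the nulls (1275). Without centring, 43.6% of the calls were higher in CS males, against 50.9% with it. Small differences therefore passed the test, and sizes separate the groups of genes better than calls. A mean of at least 1 on the log2 scale was found for 946 elements higher in CS males and for 269 higher in the nulls.

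The male germline list of the study holds 671 elements for 659 genes, which were selected on its time course arrays of CS and *tud* pupae and not on the arrays used here. The study took genes higher in CS males than in CS females and in *tud* males, or with values in CS males and in neither of these. CS males are also measured on these arrays, so a shift toward them is not independent of the selection. Of these, 650 elements (638 genes) were tested, and the other 21 had values on fewer than 3 arrays. The whole list was shifted toward CS males, with 607 elements higher in CS males (93.4%), 9 higher in the nulls and 34 not called. The median ratio was 0.92, or 1.90-fold, with quartiles at 0.51 and 1.31. The 6441 elements outside the list had a median of -0.06, with 2345 higher in CS males (36.4%) and 2834 higher in the nulls (44.0%). With Benjamini-Hochberg adjusted p below 0.05, 514 list elements were higher in CS males and 3 in the nulls, against 25.3% and 18.0% of all elements. A ratio above 0 on every array measured was found for 559 list elements (86.0%), and for 27.9% of the elements outside the list. In whole pupae, fewer germ cells and less RNA per germ cell cannot be told apart.

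**Figure D1:**
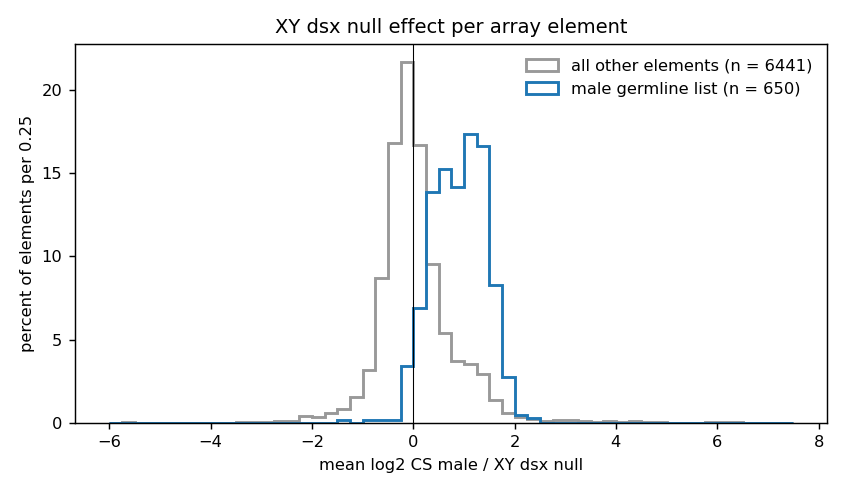
Distribution of the mean log2 ratio of CS male over XY *dsx* null for 650 elements of the male germline list (blue) and 6441 other elements (grey), as percent of each group per interval of 0.25. The germline elements form a single hump around 0.92, while the other elements centre near -0.06 and have tails to 7.24 and -5.63.

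The extremes of the list were narrower than those of the other elements. No element of the list had a mean of 3 or more, whereas 52 elements outside the list did, and the largest ratio in the list was 2.46 (5.49-fold). The shift was larger on replicate 1 than on the others, since the median of the list was 1.28 on replicate 1, 0.78 on replicate 2, 0.68 on replicate 3 and 0.89 on replicate 4. Of the 534 list elements measured on all 4 arrays, 406 (76.0%) were highest on replicate 1, against 40.7% of the 4002 elements outside the list. Without replicate 1, the median of the list was 0.79, and 595 elements were higher in CS males. Direction was therefore shared by the 4 arrays and size was not.

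The largest ratio in the list was that of a gene of sperm structure. *Mst84Dc*, which encodes a protein of the sperm tail, had ratios of 3.49, 2.39, 1.80 and 2.14, a mean of 2.46 ± 0.73 (SD, n = 4; *q* = 0.000157). All 8 genes of the *Mst* group (male-specific transcripts) were higher in CS males, against 41.6% of all elements. They ran from 1.40 to 2.46 with a median of 1.54. Among these are *Mst77F*, a chromatin protein of the condensing spermatid nucleus (1.87 ± 0.27; SD, n = 4; *q* = 3.54e-05), and *ProtA*, a protamine that replaces histones (1.40 ± 0.63; SD, n = 4). All 8 leucyl aminopeptidases, which are abundant proteins of sperm, were also higher in CS males (against 41.6% of all elements), with a median of 1.56. *S-Lap1* (CG6372) had ratios of 2.66, 1.59, 1.70 and 1.54 and *loopin-1* (CG4750) of 2.95, 1.63, 1.51 and 1.40, so that replicate 1 stood above the other arrays for both.

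All 9 genes of the sperm axoneme, the microtubule core of the tail, were higher in CS males, against 41.6% of all elements. Their median was 1.13, with a range from 0.23 to 1.46. *betaTub85D*, the β-tubulin of the male germ line, was reduced in the nulls on every array (2.34, 1.12, 0.82 and 1.56; mean 1.46 ± 0.66, SD, n = 4; *q* = 0.000801). *Sdic3*, a dynein intermediate chain gene in a cluster of near-identical copies whose signals may not be separate, departed from the pattern of the arrays, with 0.00 on replicate 1 and 1.37, 1.75 and 2.11 on the others. Of the 15 genes for mitochondrial proteins of the testis, 13 were higher in CS males (86.7%, against 41.6% of all elements), with a median of 0.93. These include the chaperonin *Hsp60B* (1.54 ± 0.51; SD, n = 4) and *Cyt-c-d*, a cytochrome *c* used when spermatids are individualized (1.36 ± 0.50; SD, n = 4). The other two, *Tim10* (0.00) and *Tim9b* (0.01), which serve import into mitochondria, were not called.

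Of the 11 elements for translation and meiosis in the testis, 10 were higher in CS males (90.9%, against 41.6% of all elements). Their median was 0.97 (0.73 without replicate 1). *boule* (*bol*), which is needed for entry into meiosis, had a mean of 0.97 ± 0.39 (SD, n = 4; *q* = 0.000964), and the spermatocyte initiation factors *eIF4E3* and *eIF4G2* had means of 1.02 ± 0.57 and 0.62 ± 0.23 (SD, n = 4). The RNA localization gene *exu* was represented by a pair of elements, with means of 1.42 and 1.33. The element for *orb2*, a translational regulator with functions also outside the testis, was not called (0.03 ± 0.39; SD, n = 4). *RpL22-like* (1.32) and *Porin2* (1.49) were also higher in CS females than in XX *dsx* nulls, with means of 1.53 and 1.12 in that comparison. These 5 testis groups were drawn up with earlier results of these data known, and most of their genes are members of the germline list.

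**Figure D2:**
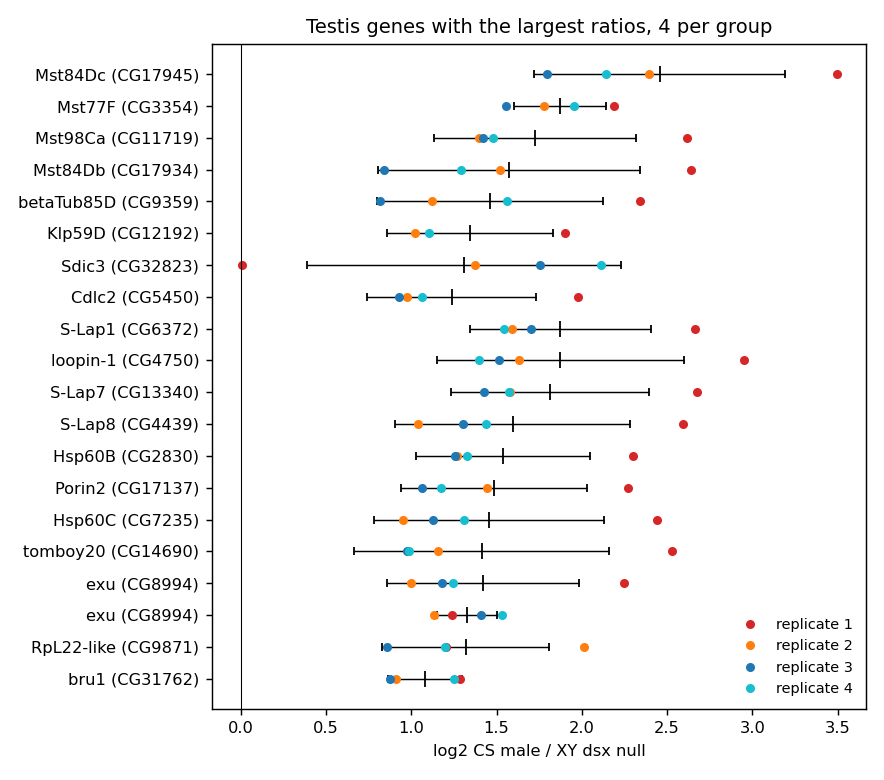
Log2 ratio of CS male over XY *dsx* null on each array (coloured points), with the mean (vertical tick) and SD (horizontal bar), for the 4 elements with the largest ratios in each of 5 testis groups. Replicate 1 (red) is the highest point for most of them, while *Sdic3* has its lowest value there (0.00).

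The largest germline ratios outside these groups belonged to genes of unknown function. *CG1288* had a mean of 2.35 ± 0.62 (SD, n = 4), *CG32462* of 2.24 ± 0.50, *CG2964* of 2.09 ± 0.48 and *CG5089* of 2.05 ± 0.33. *COX6AL2* (CG14077), which resembles a subunit of cytochrome *c* oxidase, had a mean of 1.94 ± 0.39. The shift was found on every chromosome arm with list members, with medians between 0.85 on 3R (170 elements) and 1.10 on the X (65 elements).

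The 9 list elements that were higher in the nulls were few and mostly small. *CG8420* was the clear exception, at -1.47, -1.45, -1.43 and -1.61 on the 4 arrays (mean -1.49 ± 0.08, SD, n = 4; *q* = 3.79e-05), and it is also a male-biased gene of the DSX set. *CG6409* (-0.83 ± 0.31), *Osi3* (-0.62 ± 0.62) and *quail* (*qua*), which encodes a villin-like actin regulator (-0.49 ± 0.20), followed. The other 5, *Mical*, *Cnx99A*, *betaNACtes6*, *His2A:CG31618* and *Imp*, lay between -0.20 and -0.14. Without replicate 1, 18 list elements were called higher in the nulls.

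The size of the reduction followed the sex ratio of a gene in Berlin pupae, a strain whose arrays share no sample with these. Across 600 list elements with a Berlin mean, the XY *dsx* null ratio and the Berlin ratio of female over male correlated at -0.66 (Pearson) and -0.71 (Spearman), as a description across elements. For the 102 list elements with a Berlin ratio of -4 or less, all were higher in CS males than in the nulls, with a median of 1.44 (2.71-fold). The median was 1.21 for 155 elements between -4 and -2, 0.74 for 179 between -2 and -1, and 0.44 for 164 above -1. The genes most limited to males in Berlin had quartiles of 1.23 and 1.59.

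Elements outside the list behaved alike when their Berlin ratio was alike. The 48 with a Berlin ratio of -4 or less were all higher in CS males, with a median of 1.39, and 263 of 271 between -4 and -2 were higher in CS males, with a median of 1.18. In the open bin above -1, 4826 other elements had a median of -0.11 and 164 list elements had 0.44. That bin also takes in elements without male bias and with female bias. Elements outside the list had a median Berlin ratio of 0.03 (4756 with at least 3 values). Berlin ratios were therefore not alike within this bin, and it does not compare list and other elements of like sex ratio. In both groups with a Berlin ratio of -4 or less, replicate 1 gave the largest medians, at 2.27 for the list and 2.25 outside it, against 0.94 to 1.24 on the other arrays.

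**Figure D3:**
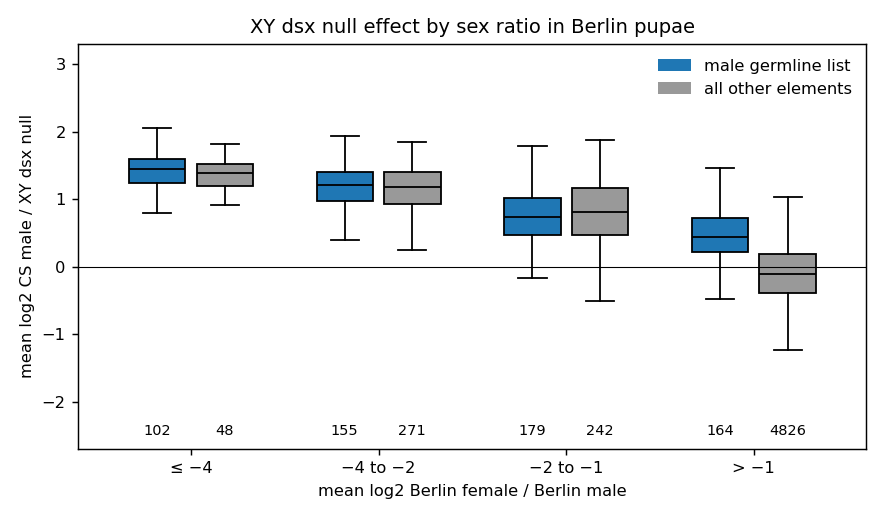
Mean log2 ratio of CS male over XY *dsx* null in 4 bins of the mean log2 ratio of Berlin female over Berlin male, for the male germline list (blue) and all other elements (grey), with the number of elements under each box. Boxes show quartiles and the median, whiskers the usual range, and points beyond are not drawn; in the bins of strong male bias both groups lie above 0, with medians from 1.18 to 1.44.

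In XX *dsx* nulls the list had ratios near 0, as far as it could be measured there. Only 262 of the tested list elements had values on at least 3 arrays of both comparisons, and their medians were 0.49 in XY and -0.02 in XX. In the limma contrast of XY minus XX ratios, 169 of these 262 had a higher ratio in XY and 1 a lower one, against 13.4% higher and 25.2% lower among the 5053 elements tested in that contrast (38.6% called in all). With Benjamini-Hochberg adjusted p below 0.05, 72 of the 262 had a higher ratio in XY, and 6.08% of all elements were called in either direction. In *tud* progeny 274 list elements with at least 3 values had a median ratio of female over male of -0.02. *Mst84Dc* and *loopin-1* had no value on any XX *dsx* null array.

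Outside the germline list most ratios were small, with quartiles of -0.35 and 0.33, and the extremes ran further in both directions than within it. The largest among named elements was that of *CG15615*, at 6.84, 6.79, 8.60 and 6.72 on the 4 arrays (mean 7.24 ± 0.91, SD, n = 4; 151-fold; *q* = 3.08e-06). *yellow* (*y*), which is required for black melanin in the adult cuticle, was 6.23, 7.42 and 6.48 on the 3 arrays where it was measured (6.71 ± 0.63; SD, n = 3; *q* = 5.14e-06). The X chromosome of the XY *dsx* nulls is not described in the sources used here, and stocks of related crosses in the study carried a *y* mutation, so the part of a *y* allele in this ratio was not tested. *CG12164* (6.35 ± 0.24; SD, n = 4), *CG10005* (6.31 ± 0.30), the putative cuticle gene *CG31878* (6.24 ± 0.36) and *CG12003* (6.11 ± 0.58) followed. *Vajk1* (CG16886), *CG15545*, *Vajk4* (CG30101) and *CG42449* (CG15778) had means between 5.22 and 5.95. The lowest value of any of these 10 on any array was 4.69.

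The same 10 genes were lower in XX *dsx* nulls than in CS females, with means between 2.89 and 5.93. All 10 are female-biased members of the somatic sex-biased set of the study, which was selected on the CS, Berlin and *tud* arrays. Their direction in those comparisons was therefore fixed by the selection, and only the sizes are described. In *tud* progeny the means of female over male were between 3.40 and 6.33, and in Berlin the 8 that were measured had means of 1.86 to 4.82. In the XX pseudomales, which make DSXM, the means of CS female over pseudomale were 1.25 to 3.58 for *dsxD* and -0.25 to 2.47 for *tra*, where 2 of the 10 were negative. On the CS arrays, which used RNA of CS males as these arrays did, the means of female over male were 0.44 to 0.98. The CS arrays were scattered, with an SD above the mean for each of the 10, as for *CG12164* (0.81 ± 1.73; SD, n = 4). Some means in the other comparisons were also scattered, as for *CG15545* in *tud* progeny (4.68 ± 3.03; SD, n = 4) and *y* in Berlin (4.13 ± 4.53; SD, n = 3).

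Among named elements, the largest differences toward the nulls were smaller. The lowest mean of any element outside the list was -5.63, and 10 elements had a mean of -3 or less, most of them without a gene name. *CG31775* was -4.23, -5.00, -4.59 and -3.78 (mean -4.40 ± 0.52, SD, n = 4; 21.1-fold; *q* = 3.78e-06), and *CG34166* (CG15281) was -3.01 ± 0.61 (SD, n = 4). *Limostatin* (*Lst*), which encodes a hormone that restrains insulin release, was -2.58 ± 0.24. The serpin gene *Spn100A* (-2.55 ± 0.50), *windbeutel* (*wbl*), which acts in the endoplasmic reticulum in the making of the dorsoventral axis (-2.21 ± 0.37), and *vrille* (*vri*), a bZIP repressor of the circadian clock that also acts in epidermal hairs (-2.20 ± 0.29), came next. *CG31806*, *neyo* (*neo*), *Osi24* (CG15589) and *CG15911* had means between -2.19 and -2.09. All 10 had negative means in the XX *dsx* null comparison too, from -3.46 to -0.74. The XX pseudomales, which make DSXM, gave similar directions for the 9 that were measured. Means of CS female over pseudomale were -2.71 to -0.84 for *dsxD* and -2.54 to 0.27 for *tra*, where 1 was positive. The sex ratios of the 10 were mixed. Means of female over male were -2.96 to 1.40 in Berlin (3 of 9 positive), -1.65 to 1.08 in *tud* progeny (3 of 9) and -3.07 to 0.89 on the CS arrays (5 of 10).

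**Figure D4:**
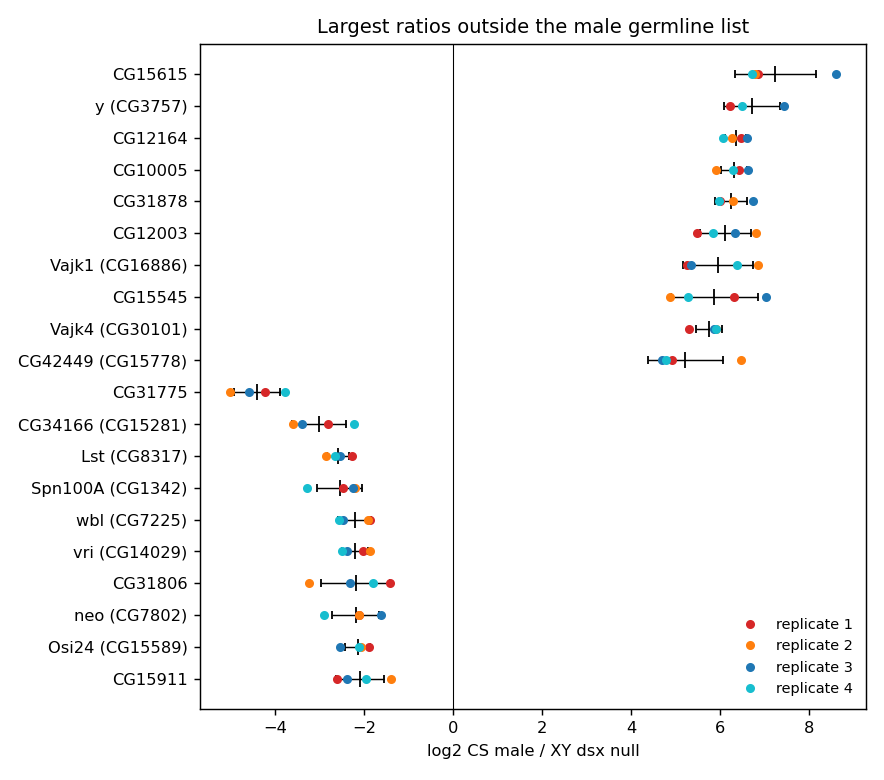
Log2 ratio of CS male over XY *dsx* null on each array (coloured points), with the mean (vertical tick) and SD (horizontal bar), for the 10 named elements with the largest ratios toward CS males and the 10 toward the nulls outside the male germline list. The positive means run from 5.22 to 7.24 and the negative means from -4.40 to -2.09, and no array crosses 0.

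Genes of the cuticle and of chitin were mostly reduced in the nulls. Of 25 elements tested (23 genes), 17 were higher in CS males (68.0%, against 41.6% of all elements) and 8 in the nulls (32.0%, against 40.1%), with a median of 1.56. The 17 included the chitin-binding protein *Peritrophin-A* (4.39, 4.19, 4.69 and 4.28; mean 4.39 ± 0.22, SD, n = 4; *q* = 3.77e-07), the cuticular protein *Cpr66Cb* (4.30 ± 0.33) and the chitin deacetylases *serpentine* (*serp*, 2.39 ± 0.61) and *Cda4* (2.32 ± 0.16). *vermiform* (*verm*), a further chitin deacetylase, had elements at 3.15 and 1.03 that differed in size and shared their direction. *Cpr72Ec* varied among arrays, with 5.22, 4.05, 1.40 and 3.89. *CG31878*, *Peritrophin-A* and *serp* are female-biased members of the DSX set described below. The counts of this group are therefore not separate from those of that set, and their direction is not independent of its selection. Higher in the nulls were both elements of *Cpr49Ac* (-1.29 and -1.09), the chitinase *Cht10* (-0.97 ± 0.22), *resilin*, the elastic protein of the cuticle (-0.81 ± 0.23), and *krotzkopf verkehrt* (*kkv*), the epidermal chitin synthase (-0.32 ± 0.34). In pigmentation and tanning the 8 elements were mixed, with 3 higher in CS males (*y*, *yellow-e* at 1.27 ± 0.29 and *yellow-h* at 0.49 ± 0.40), 2 higher in the nulls (*ebony* (*e*) at -0.43 ± 0.58 and *yellow-d2* at -0.40 ± 0.28), 3 not called and a median of 0.03, so the share higher in CS males (37.5%) was near the 41.6% of all elements.

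Genes of epithelial shape and of the ecdysone response went mostly the other way. Of 24 elements tested, 16 were higher in the nulls (66.7%, against 40.1% of all elements) and 4 in CS males (16.7%, against 41.6%), with a median of -1.28. The ZP-domain proteins of the apical matrix that shape bristles, hairs and wing cells moved together, with *dusky-like* (*dyl*) at -1.89, -2.14, -2.28 and -1.85 (mean -2.04 ± 0.21, SD, n = 4; *q* = 1.75e-05) and *miniature* (*m*) at -1.81 ± 0.23. *shavenoid* (*sha*), required for wing hairs (-1.55 ± 0.12), and *singed* (*sn*), the fascin that bundles actin in bristles (-1.21 ± 0.46), were also higher in the nulls. The ecdysone-inducible gene *ImpE1* had elements at -1.48 and -0.89. Of the Osiris genes, a family of epithelial membrane proteins, *Osi11* (-2.08 ± 0.33) and *Osi21* (-2.05 ± 0.41) were higher in the nulls, and *Osi19* (0.76) was higher in CS males. Many of the genes named here, *dyl*, *m*, *sha*, *ImpE1*, *Osi11* and *Osi21*, are male-biased members of the DSX set described below, as are *vri* and *Osi24*. The counts of this group are therefore not separate from those of that set, and their direction is not independent of its selection.

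Of 18 muscle elements, 16 were higher in CS males (88.9%, against 41.6% of all elements) and 2 were not called, with a median of 0.64 (1.56-fold). With Benjamini-Hochberg adjusted p below 0.05, 12 of the 18 were higher in CS males, against 25.3% of all elements. The calcium-binding protein *Scp1* (1.05, 0.95, 1.69 and 1.57; mean 1.32 ± 0.37, SD, n = 4; *q* = 0.000273), *Mp20* (1.31 ± 0.32; SD, n = 3), the actin *Act87E* (1.12 ± 0.44; SD, n = 4), *Limpet* (*Lmpt*, 1.08 ± 0.75) and troponin T (*up*, 0.95 ± 0.16) had the larger ratios. *Scp1* and *Lmpt* are female-biased members of the DSX set described below, so their direction is not independent of its selection. *Act87E* is also a member of the male germline list, with a Berlin ratio of -1.03, so its ratio here cannot be assigned to muscle. It was not lower in XX *dsx* nulls than in CS females, with a mean of -0.15 in that comparison. Both lysozyme genes that could be measured among 13 genes of the midgut were strongly reduced in the nulls. *LysX* was 4.09, 4.44, 4.58 and 4.33 (mean 4.36 ± 0.21, SD, n = 4) and *LysS* was 3.19 ± 0.52.

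All 8 elements of the larval serum and fat body group were called higher in the nulls, against 40.1% of all elements, with a median of -0.70. With Benjamini-Hochberg adjusted p below 0.05, 6 of them were higher in the nulls, against 18.0% of all elements. *LpR1* (0.26, -0.65, 0.05 and -0.32) and *Fbp1* (0.08, -1.10, -0.51 and -0.28) had values of both signs. The storage proteins *Lsp1alpha* (-2.06, -1.98, -2.60 and -1.48; mean -2.03 ± 0.46, SD, n = 4; *q* = 8.57e-05), *Lsp1beta* (-1.77 ± 0.27) and *Lsp1gamma* (-0.84 ± 0.28) led this group, and *Tsf1*, an iron carrier of the hemolymph, was at -0.72 ± 0.07 (SD, n = 3). Fat body genes were also higher in XX *dsx* nulls than in CS females, with a median of -0.88. The shift was not particular to animals without DSX. In the XX pseudomales, which make DSXM, the medians of CS female over pseudomale were -1.14 for *dsxD* and -1.46 for *tra*. Of 9 genes of immunity and blood cells, 6 were higher in the nulls (66.7%, against 40.1% of all elements), among them the stress peptide *TotA* (-2.06 ± 0.32; SD, n = 4) and the antifungal peptide *Drosomycin* (*Drs*, -0.86 ± 0.40), and the scavenger receptor gene *croquemort* (*crq*) was higher in CS males (0.58 ± 0.15). Of 8 genes of nerve cells, 5 were higher in the nulls (62.5%, against 40.1% of all elements) and 2 in CS males (25.0%, against 41.6%). All lay between -0.63 and 0.31. With Benjamini-Hochberg adjusted p below 0.05, 2 were higher in the nulls (against 18.0% of all elements) and 0 in CS males. *Sap47*, *scrt*, *Eaat1* and *NLaz* of this group are also members of the female germline list of the study, so their ratios cannot be assigned to nerve cells. The part of fat body, muscle and midgut content in the other ratios was not tested.

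The DSX set of the study, genes with sex-biased levels in the soma that the study places downstream of *dsx*, was selected on its wild type, *tud* and pseudomale arrays, some of which carried CS male RNA as these do. Its female-biased members had to be higher in CS females than in *dsxD* pseudomales, and its male-biased members lower. Those pseudomales carried the *dsx* M+R15 allele of these nulls, so the directions below are not independent of the selection. Of 114 female-biased elements tested, 108 were higher in CS males than in XY *dsx* nulls (94.7%, against 41.6% of all elements). Another 4 were higher in the nulls (3.51%, against 40.1%), and the median was 1.74 (3.34-fold). Of 46 male-biased elements, 40 were higher in the nulls (87%, against 40.1% of all elements) and 3 in CS males (6.52%, against 41.6%). Their median was -1.32 (2.50-fold). Most female-biased members of the DSX set were thus lower in XY animals without DSX than in wild type males, and most male-biased members were higher in them. With Benjamini-Hochberg adjusted p below 0.05, 99 female-biased elements were higher in CS males and 35 male-biased elements were higher in the nulls. Of all elements, 25.3% and 18.0% were called in these directions. Elements of the somatic sex-biased set outside the DSX set were less one-sided, with a median of 0.19 for 170 female-biased and -0.09 for 41 male-biased elements. Of these female-biased elements, 55.9% were higher in CS males and 28.8% in the nulls. Of the male-biased ones, 36.6% were higher in CS males and 46.3% in the nulls. The 303 elements of the female germline list had a median of -0.11, near that of all elements outside the male germline list.

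The exceptions in the DSX set were few. The 4 female-biased elements higher in the nulls were *rugose* (*rg*, -0.21), *CG10802* (-0.10), the homeotic gene *abdominal A* (*abd-A*, -0.27 ± 0.19; SD, n = 3) and the lipophorin receptor *LpR1* (-0.17), and none of them passed the Benjamini-Hochberg threshold of 0.05. All 4 had positive means in the XX *dsx* null comparison, from 0.23 to 0.60. The 3 male-biased elements higher in CS males were *CG14995* (0.85 ± 0.37; SD, n = 4; *q* = 0.00146), *CG8086* (0.46 ± 0.58; SD, n = 3; *q* = 0.0447) and *CR40354* (0.17). They had negative means in XX *dsx* nulls, at -0.64, -1.98 and -0.72. *CG8086* was 1.12, 0.03 and 0.21 on its 3 arrays, and its call was lost without replicate 1 (0.12, *q* = 0.155). The second element of *CG14995*, outside the DSX set, was 0.89 ± 0.09 (SD, n = 4). The study groups some genes of either bias with the yolk protein genes, which DSXF raises and DSXM lowers. It drew this group from both *dsx* null comparisons, so the signs on these arrays are not independent of that choice. *CG10802*, *abd-A*, *LpR1*, *CG14995* and *CG8086*, named above, belong to the group. Of the 7 elements tested, those of the male-biased *CG8086* and *CG14995* had ratios between 0.46 and 0.89. Those of the female-biased *abd-A*, *LpR1*, *CG9485* and *CG10802* had ratios between -0.27 and -0.10, and *CG9485* was not called.

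The ratios of DSX set members in the XY and XX comparisons, which share no sample, were close in direction. For 112 female-biased elements measured in both, the medians were 1.76 in XY and 1.46 in XX, but the median difference of an element was only 0.04, and 61 had a larger and 51 a smaller ratio in XY. By the limma contrast 32 were larger and 21 smaller in XY, against 13.4% and 25.2% of all elements. With Benjamini-Hochberg adjusted p below 0.05, 9 were larger, against 170 of all 5053 elements. For 46 male-biased elements, the medians were -1.32 and -1.02, with 17 lower in XY by the contrast and 6 higher. The background in the contrast was 25.2% lower and 13.4% higher. The 17 fell to 10 without XY replicate 3, 7 without XY replicate 4, 6 without XX replicate 1 and 11 without XX replicate 3. With Benjamini-Hochberg adjusted p below 0.05, 2 were lower in XY, against 137 of all 5053 elements. Across all elements the largest named differences were those of *y* (6.71 in XY and 3.42 in XX; difference 3.29, *q* = 0.00149) and *CG15615* (7.24 and 4.20; difference 3.04, *q* = 0.00486). On the other side were *Osi24* (-2.15 and -0.74; difference -1.40, *q* = 0.00486), *CG15911* (difference -1.30), *CG30427* (0.96 and 2.16; difference -1.20) and *Cpr72Ea* (-0.74 and 0.43; difference -1.17, *q* = 0.00768). *CG14624* (difference 3.02, *q* = 0.0663) and *Nost* (CG15364; difference 2.98, *q* = 0.0804) also passed the threshold, but their ratios were scattered, with SDs of 2.46 in XY for *CG14624* (n = 4) and of 3.07 in XX for *Nost* (n = 3), and both calls were lost without XY replicate 3.

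**Figure D5:**
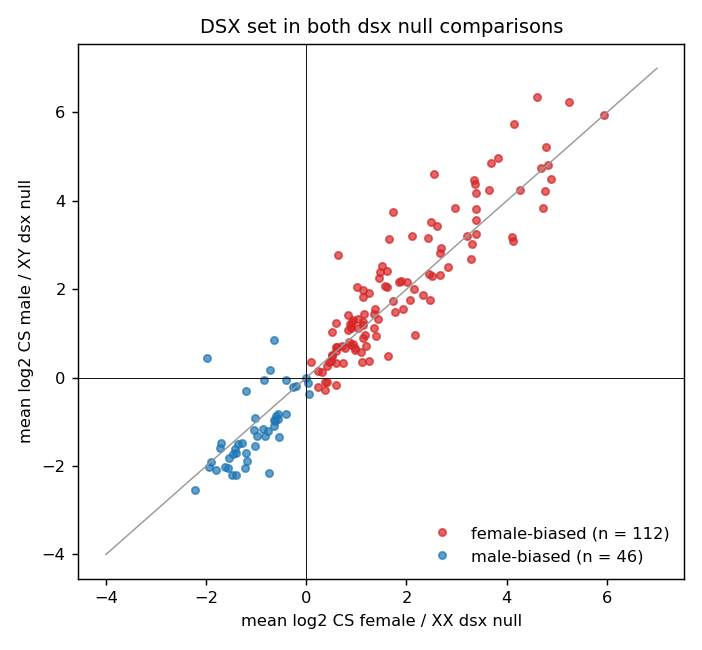
Mean log2 ratio of CS male over XY *dsx* null against mean log2 ratio of CS female over XX *dsx* null for 112 female-biased (red) and 46 male-biased (blue) elements of the DSX set, with the line of equal ratios in grey. Most points lie in the quadrants of equal sign, with medians of 1.76 and 1.46 for female-biased and -1.32 and -1.02 for male-biased elements.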

How the data were processed

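Processed values from 2-colour spotted oligonucleotide arrays were used. Per the labels and the methods of the study, about 30 µg of total RNA was labeled directly with Cy3 or Cy5, arrays were scanned on a GenePix scanner, and elements too dim in both channels were left out. The authors deposited log2 ratios of the 2 channels after global loess normalization within each array in LIMMA, with dye-swapped arrays already turned. Whether background was subtracted, or arrays were scaled to each other, is not given in the sources used here. The series design describes the 4 arrays as biological replicates, and their number limits the precision.

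Each array was centred on its median over 15744 elements, after 32 control elements, which could not be paired with genes, were left out. Elements with values on at least 3 of 4 arrays were tested against 0 with limma 3.58.1 in R 4.3.3 (two-sided), with Storey *q* values (smoother, lambda 0.05 to 0.95 in steps of 0.05, estimated share of unchanged elements 28.2%). A *q* below 0.15 was called, and every *q* in the text is from limma. XY minus XX ratios were tested as a limma contrast over elements with at least 3 arrays in each comparison. Means in Berlin, *tud* and other comparisons needed at least 2 arrays. The calls were also tested on simulated data. Plots were made in matplotlib 3.10.9 under Python 3.11.15.

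Elements were named through the study's gene lists (2357 elements, 2301 CG numbers), and current symbols came from the RefSeq gene table (2325 elements found). Superlatives cover these named elements alone. Named genes are the 10 called elements with the largest mean in each direction outside the male germline list and 6 within it, with the same sign on all arrays measured, up to 4 called members of each gene list and of each side of the DSX set, all measured genes of the sex hierarchy and of the yolk protein group, and the 4 largest XY minus XX differences in each direction. Other list members and exceptions were named after their values were seen. The arrays, lists and genes were chosen with earlier results of these data known. Of 191 genes in the lists written for this work, 184 had a named element.

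Alternatives were no centring, scaling of arrays, a term for dye orientation, a minimum of 2 or 4 arrays, Benjamini-Hochberg adjustment, the methods' t-test without moderation, array weights, a fit over all 28 arrays, the replicate number as a block and leaving out each array.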

Additional observations from a re-analysis of the deposited data

Results flagged for a closer look

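Among 92 sets of 4 array values examined (named elements measured on all 4 arrays, and medians of lists), 13 had 1 array far from the other 3 by Dixon's criterion, where chance alone gives about 1 in 20. Replicate 1 was the distant array for 10 of these. For 8 genes of the male germline its ratio was the higher one: *CG1288* (3.27, others 1.96 to 2.14), *Mst98Ca* (2.62, others 1.40 to 1.48), *Cdlc2* (1.98, others 0.93 to 1.06), *S-Lap1* (2.66, others 1.54 to 1.70), *loopin-1* (2.95, others 1.40 to 1.63), *S-Lap7* (2.68, others 1.43 to 1.58), *Hsp60B* (2.30, others 1.26 to 1.33) and *tomboy20* (2.53, others 0.98 to 1.16). *Vajk4* (5.30, others 5.87 to 5.90) and *Cnx99A* (-0.012, others -0.23 to -0.20) were nearer to 0 on replicate 1. *CG42449* (6.47, others 4.69 to 4.92) and *CG6409* (-0.37, others -1.03 to -0.93) stood apart on replicate 2, and *CG15615* (8.60, others 6.72 to 6.84) on replicate 3.

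The XY and XX *dsx* null ratios of 8 named elements differed in the limma contrast. The difference was positive for *y* (3.29), *CG15615* (3.04), *CG14624* (3.02) and *Nost* (2.98), and negative for *Osi24* (-1.40), *CG15911* (-1.30), *CG30427* (-1.20) and *Cpr72Ea* (-1.17).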

How the results depend on the processing

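With Benjamini-Hochberg adjusted p below 0.05, the XY comparison had 3069 calls (1794 toward CS males, 1275 toward the nulls), against 5795 with *q* values, and the XY minus XX contrast had 307 (170 higher in XY, 137 lower), against 1950. On elements measured on all 4 arrays (4536), 1885 were called toward the nulls, and the median of female-biased DSX set elements was 1.91. Male germline elements called toward the nulls, 9 in the text, numbered 18 without centring, 15 with a dye term, 17 with array weights, 5 in the fit of all 28 arrays, and 3 and 4 with Benjamini-Hochberg adjusted p below 0.05 and 0.15. Without centring, 1967 elements had a lower ratio in XY than in XX. Leaving out each array in turn gave 4740 to 5888 calls (2468 to 3023 toward CS males and 2272 to 2865 toward the nulls), 588 to 599 germline elements higher in CS males and 6 to 18 in the nulls, a germline median of 0.79 to 1.00, 105 to 107 female-biased and 38 to 40 male-biased DSX set elements in their main direction, and DSX set medians of 1.61 to 1.74 and -1.37 to -1.16 (-1.16 without replicate 4). For XY minus XX, it gave 1011 to 2272 calls (428 to 786 higher in XY, 583 to 1486 lower), with 1221 without XY replicate 3, 1150 without XY replicate 4 and 1011 without XX replicate 1. The causes of these shifts were not tested.

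Same-numbered XY and XX arrays share a dye orientation and a number, and their deviations correlated at 0.42, 0.23, 0.09 and 0.11 over 3204 elements. Arrays of unlike number correlated at -0.37 to 0.16, and for replicates 1 and 2 the same-numbered arrays had the highest value. The contrast in the text did not pair the arrays, and whether equal numbers mark a shared batch was not tested. With the replicate block, 2491 elements were called, against 1950 without it. The methods' t-test called 5842 elements at the same *q* and 813 after Benjamini-Hochberg adjustment at 0.05. Of 585 recomputed counts and medians of the gene lists, 41 shifted by more than 1.5 times or by more than the spread between arrays. Of 89 named elements, none changed its sign in the settings run. Calls of *Mical*, *Cnx99A*, *roX1*, *CG10802*, *CG8086*, *abd-A* and *LpR1*, all with means under 0.5 in size, were lost with Benjamini-Hochberg adjusted p below 0.15. Low signals limit what these arrays show, since 5865 of 15744 elements had no value on any of the 4.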
